A study of Homo sapiens with 2 samples.

Results

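The BCL2 family genes are described here in a pair of THP1 libraries, 1 prepared after 24 h of bort and the other from untreated cells. The 10 genes were chosen by symbol: the anti-apoptotic genes BCL2, BCL2L1 and MCL1, the effector genes BAX and BAK1, and the BH3-only genes BBC3, PMAIP1, BCL2L11, BID and BIK. Of these, 9 were listed among the 10987 genes of the deposited table, and BIK was not analysed here. Bort (bortezomib) inhibits the 26S proteasome, and THP1 is a human monocytic leukaemia line that carries the MLL-AF9 fusion. The sample labels give no dose for the sequenced cells. They name a TruSeq kit, whereas the methods of the study name a stranded KAPA kit, so it is not settled whether the counting could separate a gene from an antisense partner. Neither condition was sequenced more than 1 time, so no test was possible and every statement compares these libraries only.

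The BCL2 family decides whether mitochondria release the proteins that start apoptosis. The anti-apoptotic proteins hold the effectors BAX and BAK in check at the outer mitochondrial membrane. BH3-only proteins bind into a groove of the anti-apoptotic proteins or activate the effectors directly, and the freed effectors form pores through which cytochrome c leaves. NOXA, the product of PMAIP1, prefers MCL1 as its partner, whereas PUMA (BBC3) and BIM (BCL2L11) bind every anti-apoptotic protein of the family. MCL1 and NOXA are short-lived proteins that the proteasome degrades, so that transcript levels alone do not give protein levels under a proteasome inhibitor.

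Among the 9 listed genes of the set, PMAIP1 and BCL2L1 differed by 2-fold or more, in opposite directions. Their promoters are shown for that reason. The RefSeq promoter table held 8 of the 10 genes, with MCL1 and BIK not among them. The stretches run from 250 to 51 bases before the annotated start and hold no base of an exon of their own gene in GENCODE 29. PMAIP1 lies on the plus strand at chr18:59899746-59899945 and BCL2L1 on the minus strand at chr20:31724014-31724213, both in GRCh38.p14. BCL2L1 has another entry, not printed. Capitals mark GGGCGG, the GC box, and TGACG, the shared core of cyclic AMP response elements, on either strand.
PMAIP1: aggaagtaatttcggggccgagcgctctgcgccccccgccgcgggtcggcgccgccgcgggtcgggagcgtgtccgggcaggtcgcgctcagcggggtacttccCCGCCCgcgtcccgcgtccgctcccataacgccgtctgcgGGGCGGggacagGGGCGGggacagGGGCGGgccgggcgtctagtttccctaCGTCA
BCL2L1: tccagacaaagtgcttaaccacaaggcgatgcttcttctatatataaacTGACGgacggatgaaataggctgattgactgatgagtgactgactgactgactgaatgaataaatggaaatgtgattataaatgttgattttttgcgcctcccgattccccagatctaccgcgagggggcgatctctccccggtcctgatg
In the 250 bases before its start PMAIP1 held 4 GC boxes and 1 TGACG match, which began 55 bases before the start. Of 35116 promoters of that length, 42.6% held at least 1 GC box and 21.2% at least 1 TGACG. Among the other genes of the set, GC boxes lay in BID (up to 4 in an entry), BCL2L11 (3), BAK1 (2) and BAX (1). TGACG lay in BCL2 and BAX. None of these other genes was higher by 2-fold or more, and no relation of motifs to fold changes was tested. The GC content of the 250 bases was 72.8% for PMAIP1 and 50% for the printed BCL2L1 entry, with a median of 58% over all promoters. The BCL2L1 stretch held 1 TGACG match, which began 201 bases before the start, and no GC box. The other BCL2L1 entry held neither motif. TGACG was added to the search after the sequences had been seen. The full element TGACGTCA, which contains TGACG and was found in 1.65% of all promoters, matched no family promoter, and neither did TGATGCAA (0.772%) or AGATAA (9.17%). GAANNTTC, the heat shock element core found in 5.78% of promoters, matched BAK1 only. These matches describe letters and not bound sites.

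Values are FPKM, in which the fragments of a gene are divided by its length and by the sequenced total of its library. Levels can therefore be set side by side between genes of a library. The read depth behind them is unknown, so no counting error is given. Each gene of the table reached at least 0.501 FPKM in 1 library. A gene under this value in a library is therefore listed only through its higher value in the other, and its direction follows from that minimum. Of the genes named below, BCL2, BCL2L2 and TP73 lay under it in the bort-treated library. XIAP, ITGAM and S100A9 lay under it in the untreated library. The median gene stood at 5.85 FPKM in the untreated and 6.02 FPKM in the bort-treated library. The 20 most abundant genes held 10.8% of the summed FPKM in the untreated and 21.6% in the bort-treated library. With both libraries scaled to a total without these genes, the log2 fold changes given below became 2.58 for PMAIP1, -1.34 for BCL2L1 and 0.715 for MCL1, and none of the 9 genes of the set changed its direction or its side of 2-fold. Markers of the labelled line were mostly missing. Of 13 monocytic, myeloid and MLL-AF9 markers 5 were listed, summing to 18.8 FPKM in the untreated and 44.2 FPKM in the bort-treated library, and CD14, CSF1R, MPO, HOXA9 and MEIS1 were not listed. Of the 5 listed, LYZ alone passed 2-fold upwards, from 7.61 to 28.7 FPKM, against 8.08% of all genes. SPI1 was at 4.42 and 8.44 FPKM, and CD33 was lower, at 6.45 and 5.22 FPKM. ITGAM (0.234 and 0.836 FPKM) and S100A9 (0.101 and 0.937 FPKM) were 3.58-fold and 9.28-fold higher as plain ratios. Both fell short of 2-fold once 1 FPKM was added to each value, and their direction follows from the minimum given above. All 8 erythroid markers were listed, summing to 3117 and 3048 FPKM, most of it from the globin genes HBG1 and HBG2. Of the 8, KLF1 (147.1 and 17.4 FPKM), GATA1 (161.3 and 48.7 FPKM) and EPOR (8.43 and 2.83 FPKM) were lower by 2-fold or more, against 10.2% of all genes. Once the trend with GC content described below was removed, EPOR fell short of 2-fold, at -0.76 on the log2 scale. KLF1 (-2.30) and GATA1 (-1.28) stayed past it. RHAG had the highest log2 fold change of the 8, 0.71, at 221.8 and 363.3 FPKM. The part of these marker differences in the family values was not tested. The libraries are therefore named by their labels, and the family levels below belong to cells with this marker profile.

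Of the anti-apoptotic genes, BCL2L1 and MCL1 stood at nearly the same level in the untreated library and moved apart. BCL2L1, listed as ENSG00000171552.12_3, encodes BCL-XL, a guardian of erythroid and many other cells. It was at 43.2 FPKM in the untreated and 15.3 FPKM in the bort-treated library, 2.83-fold lower. Fold values, written as N-fold, are plain ratios of FPKM, whereas log2 fold changes and the 2-fold calls use log2(FPKM + 1). On the latter scale the difference was -1.44, which ranked 434 among the 10987 genes, counted from the lowest. MCL1 was at 42.7 FPKM in the untreated and 65.6 FPKM in the bort-treated library, 1.54-fold higher, with a log2 fold change of 0.61. BCL2, the founding member of the family, was the least abundant gene of the set. It was at 0.803 FPKM in the untreated and 0.263 FPKM in the bort-treated library. That is 3.05-fold lower as a plain ratio, but a log2 fold change of only -0.51 once 1 FPKM is added. Whether BCL2 counts as 2-fold lower therefore depends on the pseudocount. With a bort-treated value under 0.501 FPKM, BCL2 is listed only through its untreated value, so its direction follows from that minimum. The exons of BCL2L1 share 1424 bases with ABALON, a gene on the opposite strand that is not in the table, and fragments of ABALON could be counted as BCL2L1 only if strand was not used. The same limit holds for BCL2L11, whose exons share 727 bases with MIR4435-2HG, also on the opposite strand and not in the table.

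Neither effector gene passed 2-fold. BAX, whose protein moves from the cytosol to mitochondria on activation, was at 28.9 FPKM in the untreated and 15.3 FPKM in the bort-treated library. The plain ratio was 1.89-fold lower and the log2 fold change was -0.87. BAK1 encodes BAK, which sits in the mitochondrial membrane from the start. It was at 17.2 and 15.7 FPKM, a log2 fold change of -0.12 that turned to 0.26 once the trend with GC content described below was removed. BAX thus exceeded BAK1 1.68-fold in the untreated library, and in the bort-treated library the genes were nearly level, at a ratio of 0.973.

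Of the BH3-only genes, PMAIP1 stood far from the others. PMAIP1, listed as ENSG00000141682.11_2, was at 9.31 FPKM in the untreated and 56.4 FPKM in the bort-treated library, 6.06-fold higher. Its log2 fold change of 2.48 ranked 38 among the 10987 genes, counted from the highest. In level it moved from rank 4094 to rank 533 of the library. BBC3, encoding PUMA, was at 4.06 FPKM in the untreated and 5.44 FPKM in the bort-treated library, a log2 fold change of 0.35. BID, whose protein links death receptors to mitochondria once caspase-8 has cut it, was at 9.43 and 8.73 FPKM, a log2 fold change of -0.10 that turned to 0.02 without the GC trend. BCL2L11, encoding BIM, was low in both, at 0.932 FPKM in the untreated and 0.818 FPKM in the bort-treated library, with a log2 fold change of -0.09. Among the 4 listed BH3-only genes, the difference was therefore carried by PMAIP1, while BID, BBC3 and BCL2L11 each stayed within 1.5-fold on the deposited scale. BBC3 did not do so without the GC trend, where its log2 fold change was 0.98.

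**Figure D1:**
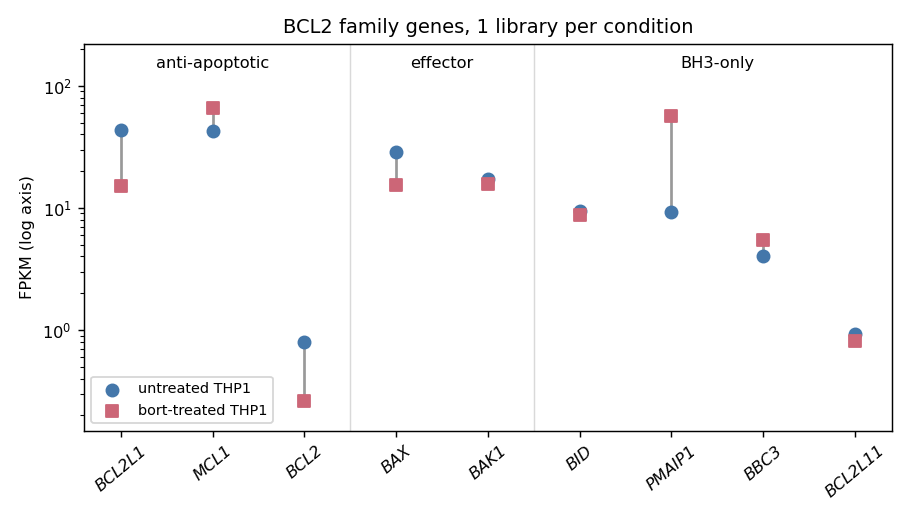
FPKM of the 9 listed BCL2 family genes on a log axis, with circles for the untreated and squares for the bort-treated library (1 library each, so no error bars) and a line joining the values of a gene. PMAIP1 goes up from 9.31 to 56.4 FPKM and BCL2L1 goes down from 43.2 to 15.3 FPKM, while BAK1, BID and BCL2L11 nearly coincide.

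In all, 1 of the 9 listed genes was higher by 2-fold or more in the bort-treated library, where 8.08% of all genes were. Likewise 1 of 9 was lower by 2-fold or more, against 10.2% of all genes. At 1.5-fold, 2 of 9 were higher (PMAIP1 and MCL1) against 20.8% of all genes, and 2 of 9 were lower (BCL2L1 and BAX) against 21.6%. These counts lie close to the background and are no result about the family as a set. The genes past 1.5-fold turned on the setting. Without the GC trend, MCL1 (0.45 on the log2 scale) and BAX (-0.44) fell short of it, while BBC3 (0.98) and BCL2 (-0.67) passed it. MCL1 also fell short with both libraries scaled to the same total (0.53). The median log2 fold change of the 9 genes was -0.10, or 0.02 without the GC trend, with 3 genes above and 6 below 0, and the median of all genes was 0.0049.

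A ratio of 2 genes within a library does not depend on how the libraries were scaled to each other. The ratio of MCL1 to BCL2L1 was 0.989 in the untreated and 4.30 in the bort-treated library, a 4.35-fold change. The ratio of PMAIP1 to MCL1, its preferred partner, went from 0.218 to 0.859, a 3.94-fold change. That of PMAIP1 to BCL2L1 went from 0.215 to 3.70, a 17.2-fold change and the largest of the 13 ratios computed. This rank follows from the pairs chosen, which set the highest against the lowest log2 fold change of the set and left out BCL2. The effectors lost ground to MCL1 and gained on BCL2L1. BAX to MCL1 went from 0.676 to 0.233 and BAK1 to MCL1 from 0.402 to 0.240, whereas BAK1 to BCL2L1 went from 0.397 to 1.03 and BAX to BCL2L1 from 0.669 to 1.00. The ratio of BBC3 to MCL1 went from 0.0951 to 0.0829, a log2 change of -0.20 that turned to 0.52 with the GC trend removed from both genes, while BBC3 to BCL2L1 went from 0.0940 to 0.357. Ratios are free of the scaling but not of the GC trend. Without it the log2 change of BAK1 to MCL1 went from -0.74 to -0.20, and that of BAX to MCL1 from -1.53 to -0.90, short of 2-fold. PMAIP1 to BCL2L1 (3.37), PMAIP1 to MCL1 (1.77) and MCL1 to BCL2L1 (1.604) stayed past 2-fold.

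The summed FPKM of the 9 genes was 156.5 in the untreated and 183.6 in the bort-treated library. The 3 anti-apoptotic genes made up 55.4% of this sum in the untreated and 44.2% in the bort-treated library, although their own sum was similar, 86.7 and 81.2 FPKM. MCL1 supplied 27.3% of the family sum in the untreated and 35.8% in the bort-treated library, and BCL2L1 27.6% and 8.31%. The 2 effector genes went from 29.4% to 16.9%. The 4 BH3-only genes went from 15.2% to 38.9%, of which PMAIP1 alone was 5.95% and 30.7%. The 6 pro-apoptotic genes summed to 0.805 times the anti-apoptotic genes in the untreated library and to 1.26 times in the bort-treated library. Without PMAIP1 the direction was the opposite, 0.697 times in the untreated and 0.567 times in the bort-treated library. This sum treats each transcript alike and says nothing of protein.

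**Figure D2:**
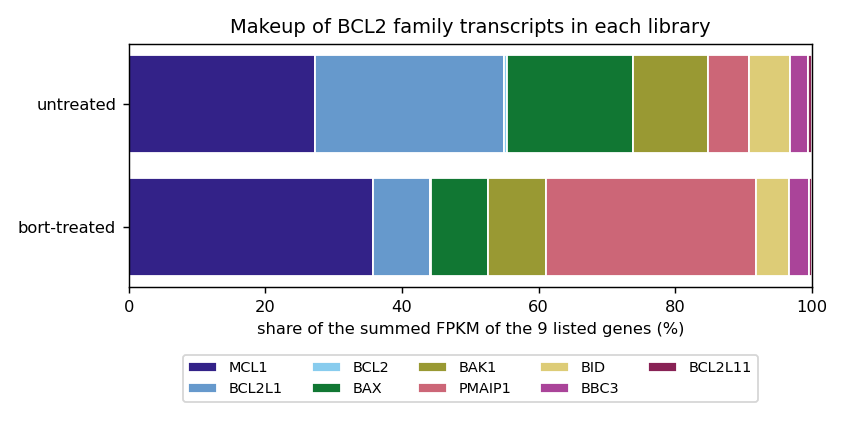
Share of the summed FPKM of the 9 listed BCL2 family genes held by each gene, in percent, with 1 bar per library. The BCL2L1 segment narrows from 27.6% to 8.31% and the PMAIP1 segment widens from 5.95% to 30.7% between the untreated and the bort-treated library.

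GC-rich transcripts tended to have lower fold changes in these libraries. Across 10907 genes, which are not independent replicates, Spearman's correlation of fold change with GC content was -0.49. The family genes spread over this range. PMAIP1 had the lowest GC content of them, 43.6%, and BBC3 the highest, 64.5%. The 500 genes nearest to PMAIP1 in GC content had a median log2 fold change of 0.24, and 99.2% of them lay below PMAIP1. For BCL2L1, at 56.2% GC, the median of its 500 neighbours was -0.33, and 5.20% of them lay below it. With the trend removed the log2 fold change was 2.22 for PMAIP1 and -1.15 for BCL2L1, both still past 2-fold. The other genes moved more in relative terms. BAX at 60.4% GC went from -0.87 to -0.44, and BBC3 went from 0.35 to 0.98, short of 2-fold, with 90.6% of its 500 neighbours below it. BAK1 went from -0.12 to 0.26 and BID from -0.10 to 0.02, so no direction is given for these genes. MCL1 kept a positive value, 0.45, with 74.6% of its neighbours below it. The part of the GC trend in each difference was not tested.

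Of 13 further BCL2 homologues and BH3-like genes, 7 were listed, of which BNIP3L passed 2-fold upwards and BOK and BCL2L2 downwards, that is 1 and 2 of 7 against 8.08% and 10.2% of all genes. Those not listed were BCL2A1, BCL2L10, BMF, HRK, BCL2L14 and BCL2L15. BNIP3L, encoding the mitophagy receptor NIX, which clears mitochondria from maturing red cells, was at 11.1 FPKM in the untreated and 40.5 FPKM in the bort-treated library, a log2 fold change of 1.78. Its relative BNIP3 was at 10.6 and 18.8 FPKM, a log2 fold change of 0.77. BCL2L13, another outer membrane protein, was at 9.73 and 13.8 FPKM. In the other direction, BOK, an effector-like protein, was at 6.87 and 2.20 FPKM, a log2 fold change of -1.30 that became -0.59 with the GC trend removed. BCL2L12 was at 45.9 and 25.8 FPKM, and BAD, the BH3-only protein that growth factor signalling keeps phosphorylated, at 7.29 and 6.37 FPKM, a log2 fold change of -0.17 that turned to 0.50 without the GC trend. The exons of BCL2L12 share 734 bases with IRF3 and those of BAD 404 with GPR137, listed genes on the opposite strand. If strand was not used, fragments of these partners could be counted here.

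BCL2L2, encoding the anti-apoptotic BCL-W, had the most negative log2 fold change of the 16 listed genes, -3.08, from 9.41 FPKM in the untreated to 0.228 FPKM in the bort-treated library. Its bort-treated value is under 0.501 FPKM, so BCL2L2 is listed only through its untreated value. Its direction follows from that minimum. The locus of BCL2L2 is also uncertain. The readthrough gene BCL2L2-PABPN1 shares 813 exonic bases with it on the same strand and went the other way, from 0.794 to 4.44 FPKM. Summed, the 2 entries gave 10.2 FPKM in the untreated and 4.67 FPKM in the bort-treated library, a log2 fold change of -0.98, short of 2-fold. As a plain ratio the sum was 2.19-fold lower, so this call depends on the pseudocount. How fragments were divided between the entries cannot be seen in gene-level values.

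**Figure D3:**
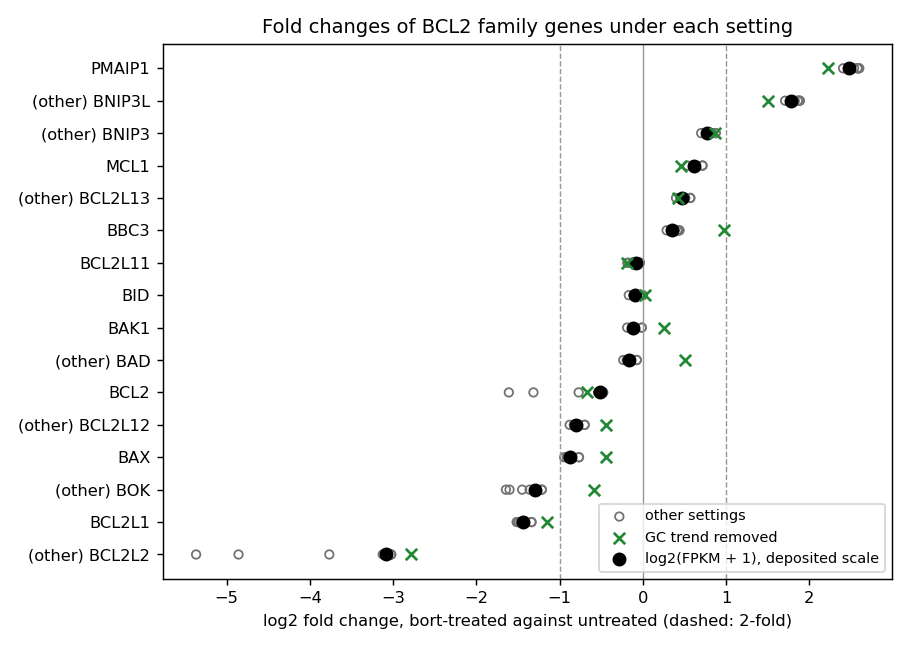
Log2 fold changes of the 16 listed BCL2 family genes on the deposited scale (black), with the GC trend removed (green crosses) and under the other pseudocounts, scalings and filter (open circles), with dashed lines at 2-fold and "(other)" marking genes outside the set of 10. PMAIP1 stays to the right and BCL2L1 to the left of the 2-fold lines throughout, while BCL2 and BCL2L2 spread with the pseudocount and BAK1, BID and BAD change sign without the GC trend.

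Genes that act on the family from outside were read from lists written with earlier results of these data known. All 16 regulators were listed. Of them 3 passed 2-fold upwards and 3 downwards, against 8.08% and 10.2% of all genes, and their median log2 fold change was -0.08 but turned positive, 0.04, without the GC trend. DDIT3, encoding the stress factor CHOP, was at 13.4 FPKM in the untreated and 153.8 FPKM in the bort-treated library, a log2 fold change of 3.43. ATF3, a factor of the same stress response, was at 1.77 and 9.22 FPKM, and FOXO3, a factor known to act on BCL2L11 and BBC3, at 3.79 and 11.0 FPKM. ATF4, which acts on PMAIP1 and DDIT3, was already high and differed less, with 153.8 FPKM in the untreated and 192.0 FPKM in the bort-treated library.

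The 3 regulators lower by 2-fold or more included STAT5A and GATA1, which are known to maintain BCL2L1 in erythroid cells. STAT5A was at 74.7 FPKM in the untreated and 11.1 FPKM in the bort-treated library, a log2 fold change of -2.64. GATA1 was at 161.3 and 48.7 FPKM, a log2 fold change of -1.71. STAT5B, the near relative of STAT5A, differed by less, at 31.2 and 25.2 FPKM. TP73 was low, at 1.36 and 0.159 FPKM. It is listed only through its untreated value, which sets its direction. Its log2 fold change of -1.02 fell short of 2-fold under 3 of 8 alternatives, among them removal of the GC trend (-0.52). No relation between these genes and BCL2L1 or PMAIP1 was tested.

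Downstream of the pores, all 11 genes for membrane partners, the apoptosome and released proteins were listed, of which 0 passed 2-fold upwards and 2 downwards, against 8.08% and 10.2% of all genes. Their median was -0.26, or -0.53 without the GC trend. ENDOG, a mitochondrial nuclease, was at 59.9 and 8.83 FPKM, a log2 fold change of -2.63. MTCH2, the mitochondrial receptor of BID, was at 63.4 FPKM in the untreated and 28.3 FPKM in the bort-treated library, a log2 fold change of -1.14. CYCS, encoding cytochrome c, was at 66.8 and 55.1 FPKM, and APAF1, the scaffold of the apoptosome, at 1.21 and 1.22 FPKM. DIABLO, an antagonist of caspase inhibitors, had the highest value of the list, 0.24.

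Of 7 caspases and substrates, all listed, 1 passed 2-fold upwards and 0 downwards, against 8.08% and 10.2% of all genes, and the median was 0.17, or 0.19 without the GC trend. CASP8, the initiator that cuts BID, was at 1.78 FPKM in the untreated and 5.35 FPKM in the bort-treated library. Its log2 fold change of 1.19 became 0.93 with the GC trend removed. DFFB, the caspase-activated nuclease, had the most negative value, -0.87, and passed 2-fold with a pseudocount of 0.1 FPKM (-1.11) and with none (-1.15). Of 7 genes for inhibitors of apoptosis 5 were listed and 0 passed 2-fold in either direction, against 8.08% and 10.2% of all genes. BIRC5, encoding survivin, was at -0.91 on the log2 scale. XIAP, a direct caspase inhibitor, was at 0.96, and its call turned on the setting. XIAP is listed only through its bort-treated value, which sets its direction. It passed 2-fold under 5 of 8 alternatives, up to 2.01 with no pseudocount, and was at 0.52 without the GC trend.

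Of 12 death receptor genes 8 were listed, of which 1 passed 2-fold upwards and 2 downwards, against 8.08% and 10.2% of all genes, with a median of -0.28 that turned to 0.0174 without the GC trend. TNFRSF10B, the TRAIL receptor DR5 and a known CHOP target, was at 3.23 FPKM in the untreated and 14.6 FPKM in the bort-treated library, a log2 fold change of 1.88. TNFRSF10A, the related receptor DR4, had a log2 fold change of -0.15. CFLAR, encoding the caspase-8 inhibitor FLIP, was at 2.69 and 0.545 FPKM, a log2 fold change of -1.26. TRAF2, an adaptor, had -1.25, or -0.78 with the GC trend removed. Of 9 genes for ligases and binding proteins of the family 8 were listed, with 1 higher and 0 lower past 2-fold, against 8.08% and 10.2% of all genes. Their median was 0.76, or 0.38 without the GC trend. YWHAZ, a 14-3-3 protein that holds BAD, was at 42.2 and 86.1 FPKM, a log2 fold change of 1.01. It fell short of 2-fold with the GC trend removed (0.75) and with both libraries scaled to the same total (0.94). HUWE1, a ligase for MCL1, had the most negative value, -0.28, while FBXW7, another, was at 0.828 and 2.23 FPKM, and the deubiquitinase USP9X, which stabilises MCL1, at 6.82 and 11.3 FPKM.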

How the data were processed

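RNA sequencing of 2 libraries, bort-treated (24 h) and untreated THP1, was analysed. Per the study's methods, HISAT2 2.0.4 was the aligner and StringTie 1.2.3 gave the abundances, which the authors deposited as FPKM per gene. GRCh37 is the build in the submitters' processing notes. The annotation release is not given in the sources used here. Genes were matched by symbol. Fold changes were differences of log2(FPKM + 1), and 2-fold was the threshold, as in the study. With 1 library per condition no test was made. GC content came from all GENCODE 29 transcripts of a gene and the trend from a lowess fit with span 0.3. Other pseudocounts, scalings and thresholds, a filter on low values and removal of the GC trend were tried as alternatives. Calculations were tested on simulated data. Low values (20 and 15 single-transcript genes below 0.2 FPKM) were too few to recover reads. The members and lists were chosen with earlier results of these data known. All 10 genes, all listed relatives, and from each other list the genes past 2-fold and the highest and lowest were to be named. BCL2L2-PABPN1, STAT5B, ATF4, CYCS, APAF1, SPI1, ITGAM, S100A9, HBG1, HBG2, TNFRSF10A, FBXW7 and USP9X were named outside this rule, after their values were seen. A few genes of the lists are not reported here and enter no list count. A planned comparison of protein sequences was not run. Python 3.11.15, numpy 2.4.6, pandas 2.3.3, statsmodels 0.14.6 and matplotlib 3.10.9 were used.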

Additional observations from a re-analysis of the deposited data

How the results depend on the processing

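No paired analysis was possible because neither condition was repeated, so that leaving out a library could not be tried either. PMAIP1 stayed between 2.22 and 2.60 and BCL2L1 between -1.52 and -1.15 on the log2 scale over 9 other settings each, always past 2-fold. MCL1, BAX, BBC3 and BCL2L11 kept their direction and stayed short of 2-fold wherever they had a value. A filter of 1 FPKM in both libraries left BCL2 and BCL2L11 without a value. BCL2 passed 2-fold with a pseudocount of 0.1 FPKM (-1.32) and with none (-1.61), by the construction of the pseudocount. With the GC trend removed BAK1 was at 0.26, BID at 0.0222, BAD at 0.50, the median of the 9 genes at 0.0222 and the median of the death receptor genes at 0.0174, all opposite in sign to the deposited scale, and the cause was not tested. The median of the regulators was at 0.0360 there, also opposite in sign. Of the 9 genes of the set, past 1.5-fold lay 2 upwards and 2 downwards, and past 4-fold 0 downwards. With a pseudocount of 0.1 FPKM and with none, 2 were lower. Of all genes, 1576 were higher with a pseudocount of 0.1 FPKM, and 1654 higher and 1708 lower with none. At 1.5-fold 2282 were higher and 2378 lower. At 4-fold the numbers were 92 and 135. Without the GC trend 675 were lower. Of 159 values for 18 genes of the other lists, 145 kept direction and side of 2-fold, 7 fell short of it and 7 came to pass it. All 13 ratios kept theirs with 1 FPKM added to each gene. In alternatives chosen after seeing the data, 11 of the 13 kept theirs with the GC trend removed, BBC3 to MCL1 reversed to 0.52 and BAX to MCL1 fell short of 2-fold at -0.90. The log2 change of the pro-apoptotic over the anti-apoptotic sum reversed to -0.30 without PMAIP1. Because depth is unknown, the counting error of genes near 1 FPKM or below (such as BCL2, BCL2L11, XIAP, TP73, ITGAM and S100A9) cannot be stated.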
